A study of Mus musculus with 104 samples.

Results

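The genes described here encode the proteasome. They were chosen by name, as genes whose single annotated symbol opens with Psma to Psmg and a number, with the brightest probe set kept for each gene. The rule itself uses no difference between groups. Of 17097 genes on the array with a probe set of a single symbol, 47 matched. They comprised 8 genes of the 20S alpha ring and 11 of the 20S beta ring, and 5 ATPases and 13 non-ATPase (Psmd) genes of the 19S cap. There were also 3 activators, 1 inhibitor and 4 assembly chaperones of the core. Genes were grouped by symbol, so the 13 include Psmd5 and Psmd9, chaperones of cap assembly. The other 2 of the 47, Psmc3ip and Psme3ip1, match the pattern but are named as proteins that interact with Psmc3 and Psme3. They were kept as matched. The mean of 45 of the 47 lay above the filter on dim probe sets, among 11853 genes that were tested. The alpha ring gene Psma8, the testis form, had a mean of 3.77 on the log2 scale and the beta ring gene Psmb11, the thymus form, 3.82, and both were left out of the tests. Psmc6, Psmd10 and Psme4 were not analysed here.

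The proteasome is the protease that degrades proteins tagged with ubiquitin. Its 20S core is a barrel of stacked alpha and beta rings, with the cutting sites on the beta subunits Psmb5, Psmb6 and Psmb7, and the 19S cap on its end binds tagged proteins, unfolds them with its ATPases and feeds them in. Interferon induces the beta subunits Psmb8, Psmb9 and Psmb10, which take the places of Psmb5, Psmb6 and Psmb7 in newly built cores (the immunoproteasome), and the activator made of Psme1 and Psme2, which docks in place of the cap. In muscle the ubiquitin and proteasome system is best known for the breakdown of fibre proteins during wasting, and in muscle stem cells it is needed for their maintenance.

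The samples were arrays of RNA from muscle stem cells (satellite cells) of Per1-Venus BAC transgenic mice on a C57B6/J background, so every group carried the reporter. Adult control (22 arrays) and aged control (24) mice ate a control diet without limit, and adult CR (32) and aged CR (26) mice received a calorie restricted diet with 30% less food for 25 weeks, after 3 weeks of adaptation. The mice were 19 to 29 (adult) or 55 to 69 weeks old (aged) when the adaptation began, and cells were taken at T0, T4, T8, T12, T16 and T20 h. There were 4 to 6 arrays for each arm and time but 1, adult control at T20, which had 1 array. Where each arm and time has its own mean, the spread of this array is taken from the other groups. In the fits of a daily curve it counts as 1 array among the 22 of its arm. The 22 adult control arrays, so named by their titles, have an age tag (83 to 97 weeks) that both aged arms share. The adult CR arrays have a tag of 47 to 57 weeks. The titles were used, and any age or diet difference that rests on adult control carries this doubt. How the cells were sorted is not given in sources used here.

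The muscle stem cell markers were bright, with Pax7 at a mean of 9.84 and Myod1, a marker of activation, at 10.6 on the log2 scale, and all 14 genes of that list passed the filter. Markers of other cell types were bright too: all 4 pericyte and smooth muscle markers passed, with Myh11 at 11.04 and Acta2 at 10.8, all 5 Schwann cell markers, with Pmp22 at 10.8 and Mbp at 10.4, and 5 of 7 fibroadipogenic markers, with Dcn at 10.5 and Pdgfra (3.77) below the filter. Of the immune lists, 4 of 7 macrophage and 3 of 6 lymphocyte markers passed, among them Cd68 at 7.91 and Cd79a at 7.50, while Ptprc (the pan-leukocyte antigen CD45, 3.30) and Cd3e (3.81) did not. No 2 arrays held identical values, and arrays of the same arm and time correlated at 0.940 to 0.983 over the genes tested. These are bulk samples, in which fewer cells of a type and less RNA per cell cannot be told apart. The titles call the arrays biological replicates, and p-values measure the spread between them.

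The stretches of 250 bases before the annotated start of 4 members are shown because the results below turn on these genes: Psma1 and Psma2 are alpha ring genes with a daily rhythm in adult CR cells, Psmg4 is an assembly chaperone with a rhythm in both CR arms, and Psmb10 is the gene that differed between diets. They are RefSeq sequences of build GRCm38.p6, written 5′ to 3′ on the strand of the gene. Capitals mark CCAAT (read as ATTGG on the other strand), the site of the factor NF-Y, and CACGTG, the E-box that clock activators bind.
Psma1, chr7:114276117-114276366, - strand: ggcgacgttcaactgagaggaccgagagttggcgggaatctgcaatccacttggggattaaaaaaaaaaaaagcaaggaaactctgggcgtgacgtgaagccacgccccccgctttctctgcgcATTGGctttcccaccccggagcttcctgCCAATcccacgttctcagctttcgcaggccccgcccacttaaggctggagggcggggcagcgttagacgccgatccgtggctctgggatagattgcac
Psma2, chr13:14612992-14613241, + strand: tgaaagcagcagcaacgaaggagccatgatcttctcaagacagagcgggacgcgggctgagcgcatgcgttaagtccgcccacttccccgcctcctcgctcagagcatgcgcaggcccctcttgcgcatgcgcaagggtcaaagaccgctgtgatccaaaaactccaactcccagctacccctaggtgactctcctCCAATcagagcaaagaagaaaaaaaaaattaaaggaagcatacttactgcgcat
Psmg4, chr13:34162714-34162963, + strand: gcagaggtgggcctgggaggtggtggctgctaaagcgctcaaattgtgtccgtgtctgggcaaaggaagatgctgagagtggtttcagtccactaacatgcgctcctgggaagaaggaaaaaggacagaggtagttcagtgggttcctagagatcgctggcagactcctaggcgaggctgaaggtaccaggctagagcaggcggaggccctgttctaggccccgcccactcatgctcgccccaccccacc
Psmb10, chr8:105938393-105938642, - strand: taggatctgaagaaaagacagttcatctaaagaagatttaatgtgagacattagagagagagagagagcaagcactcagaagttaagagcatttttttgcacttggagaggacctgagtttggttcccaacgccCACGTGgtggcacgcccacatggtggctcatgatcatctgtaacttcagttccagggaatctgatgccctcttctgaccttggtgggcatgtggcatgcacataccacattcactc
Psma1 holds the CCAAT letters on each strand and Psma2 holds them once, Psmb10 holds a CACGTG, and Psmg4 holds none of the motifs searched. Promoters of 37 of the 45 named members were in the table, as 40 entries. CCAAT stood on either strand in 13 of these 40 (32.5%), against 33.8% of 32851 promoters of all genes in the same 250 bases. CACGTG stood in 4 (10.0%), those of Psma4, Psmb10, Psmd9 and Psme3, against 6.02%. The antioxidant response core TGACNNNGC, bound by Nfe2l1 and Nfe2l2, stood in 4 (10.0%), those of Psmb5, Psmb6, Psmd9 and Psmd12, against 10.2%, and the cAMP response element TGACGTCA in 0 against 1.55%. Each motif was searched on both strands, and TGACNNNGC and TGACGTCA open with the same 4 letters. The members' shares lie near those of all promoters, and a match is a description of letters, not a bound site.

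The members differed little in level between the arms. Averaged over the 45 tested genes, an array's value was 7.69 ± 0.11 (SD, n = 22) in adult control, 7.64 ± 0.13 (n = 32) in adult CR, and in aged cells 7.70 ± 0.15 (control, n = 24) and 7.67 ± 0.09 (CR, n = 26). Means of single genes are given in that order of arms from here on, on the log2 scale, and compared within a gene, since probe sets bind their targets unequally. In the alpha ring, Psma1 had 6.96, 6.81, 7.11 and 6.79, Psma2 8.55, 8.50, 8.57 and 8.52, Psma5 7.17, 7.02, 7.06 and 7.11 and Psma6 7.51, 7.69, 7.67 and 7.70. The CR means of Psma1 lay below those of their controls by less than the SD between arrays. The dimmest, Psma8, had 3.78, 3.76, 3.78 and 3.77. In the beta ring, the trypsin-like subunit Psmb7 had 7.68, 7.39, 7.79 and 7.66, the caspase-like Psmb6 9.06, 9.09, 9.14 and 9.13 and the chymotrypsin-like Psmb5 8.08, 7.88, 8.08 and 7.96. Their inducible replacements had 7.14, 7.05, 7.21 and 6.88 (Psmb10), 7.66, 7.61, 7.78 and 7.67 (Psmb9) and 6.59, 6.43, 6.63 and 6.74 (Psmb8), and the thymus form Psmb11, the dimmest, 3.82, 3.81, 3.85 and 3.78. Psmb2 had 8.85, 8.80, 8.84 and 8.74. Psmb10 in aged CR and Psmb8 in adult CR were the lowest of their 4 arms.

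In the cap, the brightest ATPase probe set was that of Psmc4, with 8.74, 8.65, 8.72 and 8.72, and the dimmest that of Psmc3, with 7.52, 7.37, 7.52 and 7.52. The brightest of the Psmd genes was Psmd8, with 9.36, 9.34, 9.35 and 9.42, and the dimmest Psmd9, with 5.56, 5.63, 5.62 and 5.61. The scaffolds Psmd1 and Psmd2 had 8.18, 8.00, 8.21 and 8.02 and 8.19, 8.07, 8.32 and 8.10. Psmd3 had 6.80, 6.73, 6.71 and 6.69, Psmd5 6.60, 6.45, 6.53 and 6.55, Psmd6 7.31, 7.39, 7.46 and 7.60 and Psmd12 7.18, 7.27, 7.14 and 7.19. Of the activators, Psme1 had 8.22, 8.15, 8.37 and 8.28, Psme2 6.61, 6.36, 6.58 and 6.56 and Psme3 9.10, 9.03, 9.01 and 9.05, and the inhibitor Psmf1, which blocks the core from docking partners, had 7.45, 7.44, 7.47 and 7.37. The values of the 4 arms overlap for each of these genes. Of the assembly chaperones, Psmg1 had 7.24, 7.21, 7.14 and 7.09, Psmg3 5.22, 5.23, 5.22 and 5.20 and Psmg4 7.97, 8.11, 7.87 and 8.08. Psme3ip1 had 6.42, 6.51, 6.51 and 6.51. The tests on these levels follow the rhythms.

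The first question was whether transcripts of the proteasome followed the time of day. The rhythm of an arm was called when the cosine and sine of 24 h improved the fit there, at a limma adjusted p under 5% over the 11853 genes. The amplitude is the height of the fitted curve from day mean to peak on the log2 scale, given with its standard error (SE). In adult control cells 1 of 45 members was called, where 10.6% of all genes tested were. In adult CR cells 11 were called (24.4%), against 22.4% of all genes. Among aged cells, 4 were called in control (8.89%), against 10.8%, and 8 in CR (17.8%), against 16.5%. The shares lie close together in 3 arms, and in adult control the members' share was 2.22%. The median amplitude of the 45 was 0.14 in both adult arms, 0.16 in aged control and 0.15 in aged CR, against 0.14, 0.13, 0.14 and 0.14 over all genes. The complex was not called as a whole in any arm: 26 members were called in no arm, 14 in 1 arm and 5 in 2 arms, namely Psma1, Psmb2, Psmb7, Psmb10 and Psmg4, and no member in more.

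**Figure D1:**
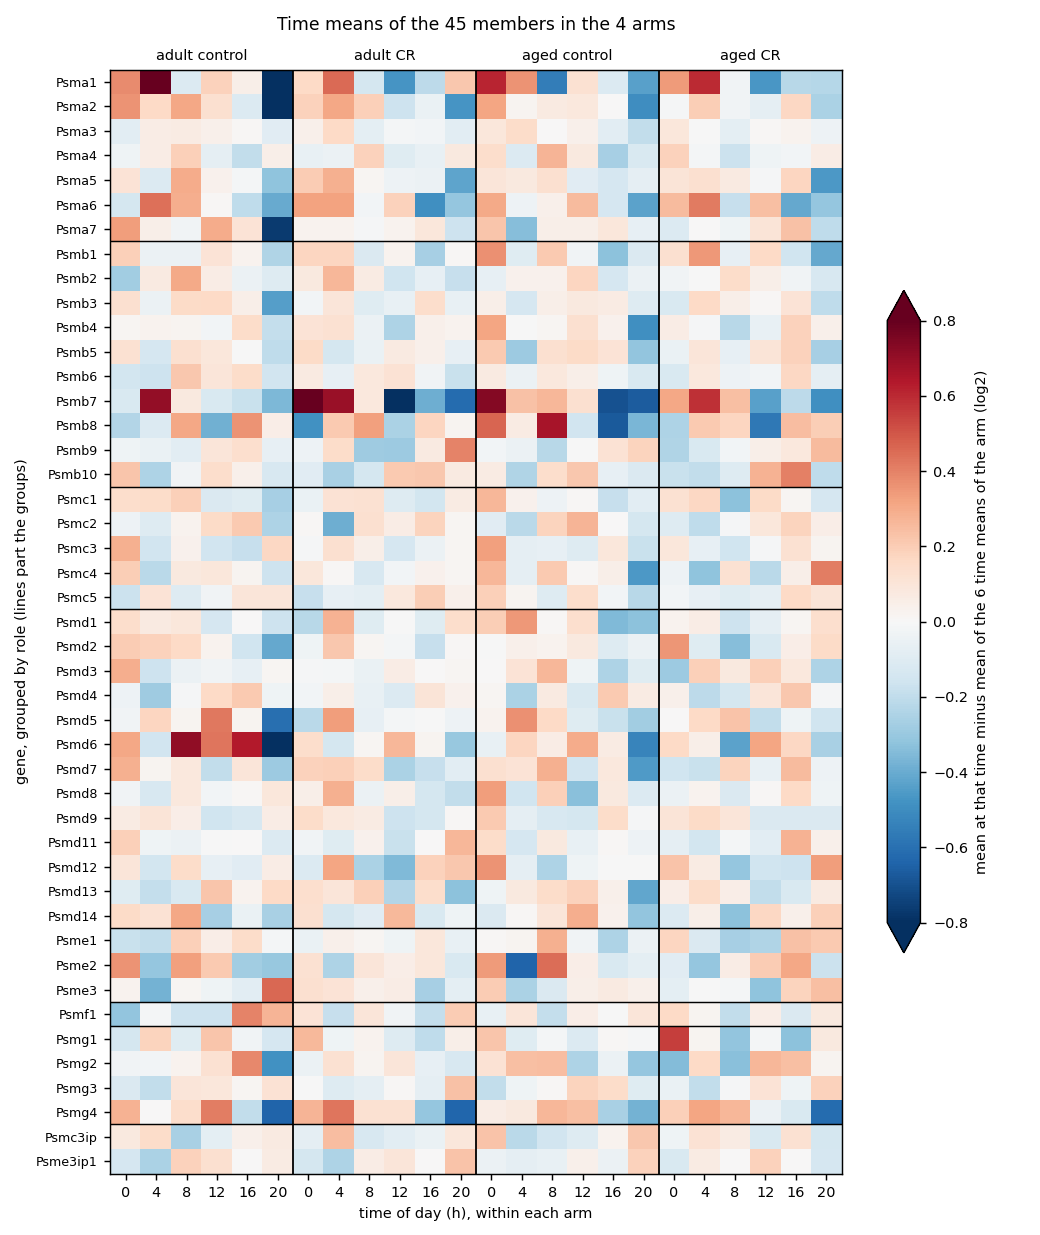
Colours give, for each of 45 members (rows, parted by role), the mean at a time of day minus the mean of the 6 time means of its arm, in log2 units, from blue (lower) to red (higher). Rows such as Psmb7, Psma1 and Psmg4 turn from red to blue within an arm, most other rows stay pale, and the dark T20 column of adult control is a single array.

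In the 20S alpha ring, which forms the gate of the core, 4 of 7 tested genes were rhythmic in adult CR cells, where 22.4% of all genes were: Psma1, Psma2, Psma5 and Psma6. Psma6 rose and fell with an amplitude of 0.34 ± 0.10 and a peak at 4.7 h (adjusted p = 0.0225), and Psma2 with 0.30 ± 0.08 and a peak at 5.06 h (adjusted p = 0.0116). Psma5 had an amplitude of 0.23 ± 0.07 and a peak at 4.97 h (adjusted p = 0.0346). These 3 genes peaked within the same hour. The 6 arrays of Psma2 at T4 in adult CR ranged from 8.61 to 9.01 and the 5 at T20 read 7.35, 7.42, 8.30, 8.35 and 8.73, so 1 T20 array lies inside the T4 range and the other 4 below it. Psma1 peaked earlier, at 0.936 h in adult CR with an amplitude of 0.40 ± 0.13 (adjusted p = 0.0424), and it was the alpha gene that was also called in aged CR, with 0.48 ± 0.14 and a peak at 2.55 h (adjusted p = 0.0343). Its arrays at T4 spanned 7.39 to 7.83 in adult control and 7.12 to 7.53 in adult CR, and those of aged cells 7.38 to 7.62 (control) and 7.14 to 7.63 (CR), a narrow band in each arm. At T20 the adult CR arrays of Psma1 spread from 5.50 to 7.60.

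Alpha ring genes were called in neither control arm by the fitted curve, against 10.6% (adult) and 10.8% (aged) of all genes. Their median amplitude was 0.16 in adult control and 0.16 in aged control. Psma6 had an amplitude of 0.38 ± 0.13 in adult control with a peak at 6.46 h (adjusted p = 0.0789), so its estimate was no smaller than in adult CR. With time as 6 free levels in place of a curve, Psma1 and Psma2 were called in both control arms, where 14.1% (adult) and 12.8% (aged) of all genes were called, and Psma1 lost its call in adult CR, where 23.7% were. Psma3, Psma4 and Psma7 were called in no arm. Psma3, the brightest probe set of the ring, had means of 9.22 and 9.16 in adult cells (control, CR) and 9.13 and 9.11 in aged cells.

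Among beta ring genes, Psmb7 moved most. It encodes the beta2 subunit, which cuts after basic residues. In adult CR its 5 arrays at T0 read 8.03, 8.33, 8.36, 8.47 and 8.99, and its 6 arrays at T12 had a lowest, median and highest value of 5.36, 6.87 and 7.19. Every T0 array lay above every T12 array. The fitted amplitude was 0.85 ± 0.15 with a peak at 2.44 h, a 3.27-fold change from trough to peak (adjusted p = 3.94e-05), and it was the highest amplitude of the 45 members in that arm. The aged arms gave estimates with peaks close to that time. In aged control the amplitude was 0.57 ± 0.17 with a peak at 4.63 h (adjusted p = 0.0478). In aged CR it was 0.52 ± 0.17 at 3.88 h (adjusted p = 0.0593) and in adult control 0.39 ± 0.18 at 5 h (adjusted p = 0.27), and neither passed. The difference between the adult diets in the rhythm of Psmb7 had an unadjusted p of 0.0328 and an adjusted p of 0.713, so the arms are not shown to differ.

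**Figure D2:**
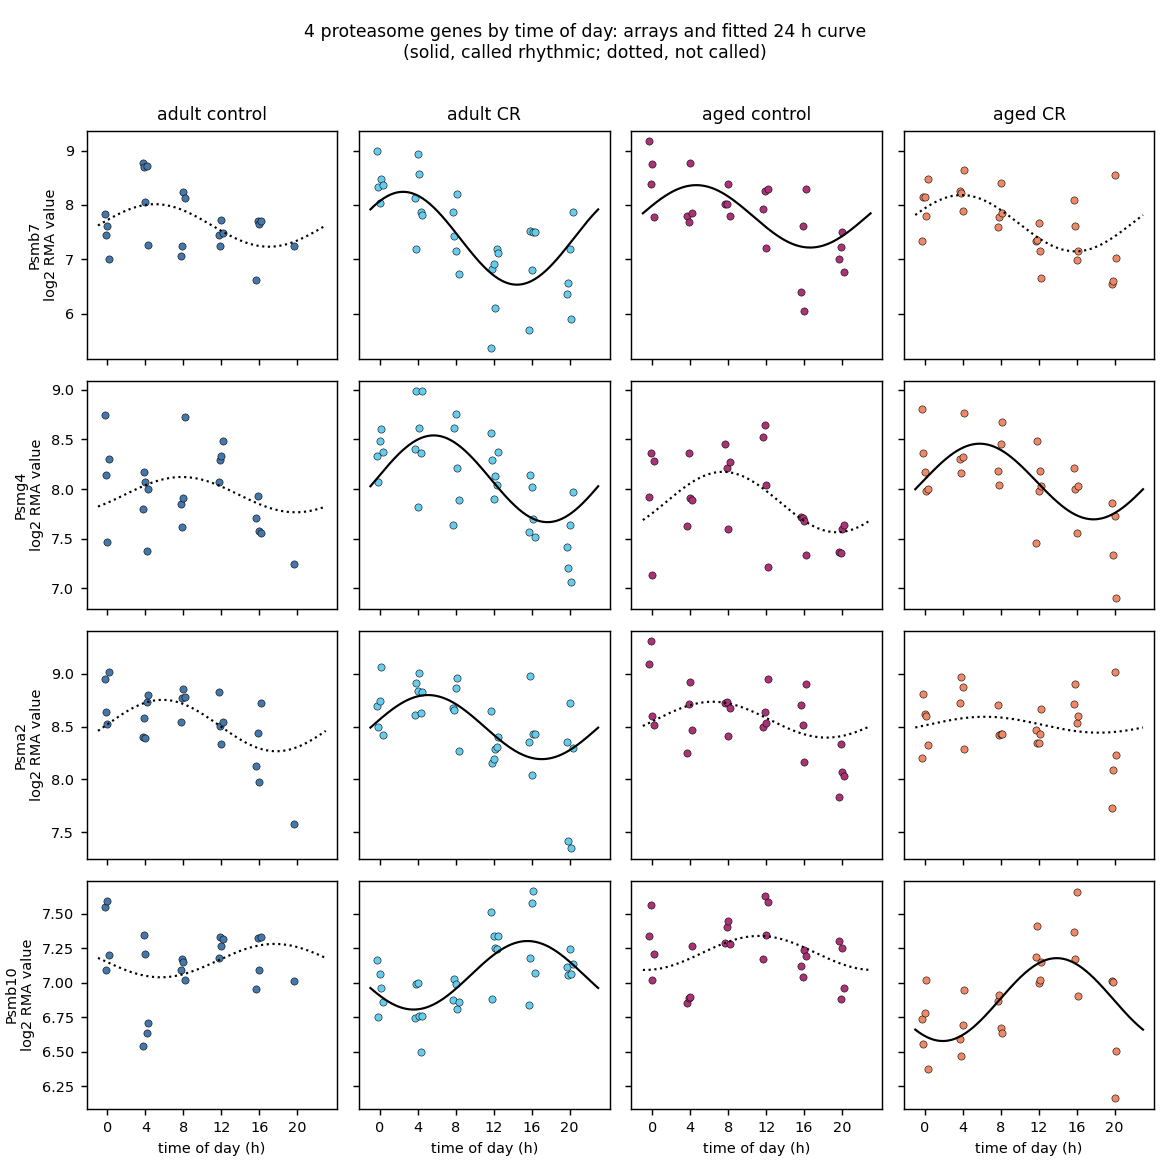
Each point is 1 array, by time of day (h) and log2 RMA value, for Psmb7, Psmg4, Psma2 and Psmb10 (rows) in the 4 arms (columns), with the fitted 24 h curve (solid where called rhythmic, dotted where not). Psmb7 is high at T0 and T4 and low from T12 in adult CR, and Psmb10 runs the other way, with its highest fitted values at 15.5 h in adult CR and 13.9 h in aged CR.

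Psmb10, the inducible subunit that replaces Psmb7, was rhythmic in both calorie restricted arms, with its peak in the other part of the day. Its amplitude was 0.25 ± 0.06 in adult CR with a peak at 15.5 h (adjusted p = 0.00355) and 0.30 ± 0.06 in aged CR with a peak at 13.9 h (adjusted p = 0.0017). Both calls stood in each of the 32 and 26 fits that left out 1 array of the arm. At T4 the 4 aged CR arrays read 6.47, 6.59, 6.70 and 6.95, and at T12 they read 6.99, 7.02, 7.15, 7.18 and 7.41, without overlap. In the control arms the amplitude of Psmb10 was 0.12 ± 0.07 (adult, adjusted p = 0.469) and 0.12 ± 0.07 (aged, adjusted p = 0.387), with no call. The rhythm of Psmb10 was not called different in any of the 4 pairs of arms tested (adult against aged in each diet, CR against control at each age).

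The other inducible subunits did not share that timing. Psmb9 was called in adult CR, with an amplitude of 0.28 ± 0.07 and a peak at 21.5 h (adjusted p = 0.00411). Its 2 dimmer probe sets had amplitudes of 0.08 and 0.05 there (unadjusted p = 0.353 and 0.631), so the call rests on 1 of 3 probe sets. Psmb8 was called in aged control and in no other arm, with 0.53 ± 0.14 and a peak at 4.85 h (adjusted p = 0.0224). Its aged control arrays ranged from 6.95 to 7.48 at T8 and from 5.52 to 6.29 at T16, without overlap, while those of aged CR ranged from 6.70 to 7.20 and 6.86 to 7.31. The difference between these arms in the rhythm of Psmb8 had an unadjusted p of 0.0353 and an adjusted p of 0.324. Of the constitutive counterparts, Psmb5 had amplitudes of 0.05 to 0.12 and Psmb6 of 0.06 to 0.19 over the 4 arms, with no call for either gene.

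Psmb2, the beta4 subunit, was the 1 member called in adult control, with an amplitude of 0.26 ± 0.07 and a peak at 8.94 h (adjusted p = 0.0331). Its 4 arrays at T8 read 9.07, 9.11, 9.18 and 9.19, above all 4 at T0, which read 8.28, 8.32, 8.80 and 8.81. In adult CR its amplitude was 0.20 ± 0.05 with an earlier fitted peak at 3.96 h (adjusted p = 0.0155). Psmb1, Psmb3 and Psmb4 were called in no arm. Psmb3, the brightest beta probe set, had means of 9.45 and 9.41 in adult cells (control, CR) and 9.51 and 9.55 in aged cells, which differ by less than the SD of any arm (0.18 to 0.22).

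None of the 5 tested ATPases of the cap (Psmc1 to Psmc5), which unfold the substrate, was rhythmic in any arm, where 10.6% to 22.4% of all genes were. Their amplitudes reached 0.17 (control) and 0.20 (CR) in adult cells and 0.21 and 0.20 in aged cells. Of the 13 Psmd genes, 1 was called in adult CR (22.4% of all genes), and in aged cells 2 in control (10.8%) and 3 in CR (16.5%). Psmd1 (the scaffold Rpn2) and Psmd5, an assembly chaperone of the cap, were the 2 in aged control, with amplitudes of 0.31 ± 0.08 and 0.29 ± 0.09 and peaks at 5 and 5.2 h (adjusted p = 0.0179 and 0.049). Psmd2 (the scaffold Rpn1), Psmd3 and Psmd12 were the 3 in aged CR. Psmd2 peaked at 21.3 h with 0.29 ± 0.08, Psmd12 at 22.4 h with 0.29 ± 0.08, and Psmd3 on the other side of the day at 9.89 h with 0.24 ± 0.06 (adjusted p = 0.0154, 0.0168 and 0.0109). Psmd6, the largest amplitude in adult control, had 0.40 ± 0.17 there and was not called (adjusted p = 0.207). The fitted peaks of Psmd2 and Psmd3 therefore lay on different sides of the day. Psmd9, a chaperone of cap assembly, was the 1 in adult CR, with 0.16 ± 0.05 and a peak at 2.06 h (adjusted p = 0.0386). A dimmer probe set of Psmd9 had its fitted peak there at 10.4 h (unadjusted p = 0.00597), so the probe sets of this gene disagree on the time.

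Of the activators, Psme1 was called in aged CR, with an amplitude of 0.29 ± 0.07 and a peak at 20.3 h (adjusted p = 0.011). At T8 its 4 aged CR arrays read 7.66, 7.95, 8.09 and 8.38 and the 4 aged control arrays 8.43, 8.44, 8.81 and 8.93, with every control array above every CR array. Among the members its rhythm came nearest to a difference between diets: in aged cells the test of that difference gave an unadjusted p of 0.000335 and an adjusted p of 0.0648, where 46 genes (0.388%) were called. Array weights or taking out the first residual component brought it past the threshold. Its partner Psme2 had an amplitude of 0.25 ± 0.11 and a peak at 13.8 h in aged CR (adjusted p = 0.228) and was called in no arm, as were the activator Psme3 and the inhibitor Psmf1. The assembly chaperones Psmg1 to Psmg4 pair and align the alpha subunits while the core is built. Psmg4 was called in both CR arms, with 0.44 ± 0.10 at 5.66 h in adult CR (adjusted p = 0.00181) and 0.38 ± 0.11 at 5.78 h in aged CR (adjusted p = 0.0293). In adult CR, Psmg4's 6 arrays at T4 had a lowest, median and highest value of 7.82, 8.51 and 8.99, and the 5 at T20 read 7.06, 7.21, 7.42, 7.64 and 7.97, with 1 T4 array inside the T20 range. Its fitted peaks in the control arms lay at 7.83 (adult) and 7.44 h (aged), with amplitudes of 0.18 ± 0.13 and 0.30 ± 0.11 that did not pass (adjusted p = 0.592 and 0.121). Psmg1 was called in aged CR with 0.31 ± 0.08 and a peak at 23.9 h (adjusted p = 0.0115). Psmg2 and Psmg3 were called in no arm, and of the interacting proteins Psme3ip1 was called in adult CR, with 0.16 ± 0.05 and a peak at 15.5 h (adjusted p = 0.0429).

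Leaving out 1 array of an arm showed which calls rest on few arrays. No omission of 1 array ended the calls of Psma2, Psmb2, Psmb7, Psmb9, Psmb10 and Psmg4 in adult CR or of Psmb10, Psmd3, Psmd12, Psme1 and Psmg1 in aged CR. Without the T20 arrays as a whole, however, the calls of Psmb2, Psmb9 and Psmg4 in adult CR and of Psmd3 and Psmd12 in aged CR were lost, and with a separate fit of the arm those of Psmd3 and Psmg1. A single array decided those of Psma6 (adult CR T16 replicate 3, adjusted p = 0.084 without it), Psmb8 (aged control T16 replicate 3, 0.0612), Psmd1 (aged control T16 replicate 1, 0.0516) and Psmd2 (aged CR T0 replicate 1, 0.0505). The call of Psmb2 in adult control was lost in 5 of 22 omissions (highest adjusted p = 0.102, without T0 replicate 3), and that of Psmg4 in aged CR in 5 of 26 (0.092, without T20 replicate 4). In adult CR, calls were lost in 8 of 32 omissions for Psma5 (highest adjusted p = 0.0759), 11 for Psmd9 (0.0681), 15 for Psme3ip1 (0.104) and 16 for Psma1 (0.0905). The call of Psma1 in aged CR was lost in 8 of 26 (0.0825). In aged control those of Psmb7 and Psmd5 were lost in 15 and 19 of 24 (highest adjusted p = 0.152 and 0.148). Calls ended by most omissions had adjusted p-values just under the threshold with all arrays.

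The called members did not peak at 1 time. In adult CR, 8 of the 11 had fitted peaks between 0 and 6 h, where 27.8% of the 2650 rhythmic genes of that arm peaked, and the exceptions were Psmb10, Psme3ip1 and Psmb9. In aged control all 4 peaked between 0 and 6 h, against 25.5% of 1276 genes. In aged CR 2 of 8 did, against 20.7% of 1951 genes, and 4 peaked between 18 and 24 h. These shares describe few genes and carry no test.

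**Figure D3:**
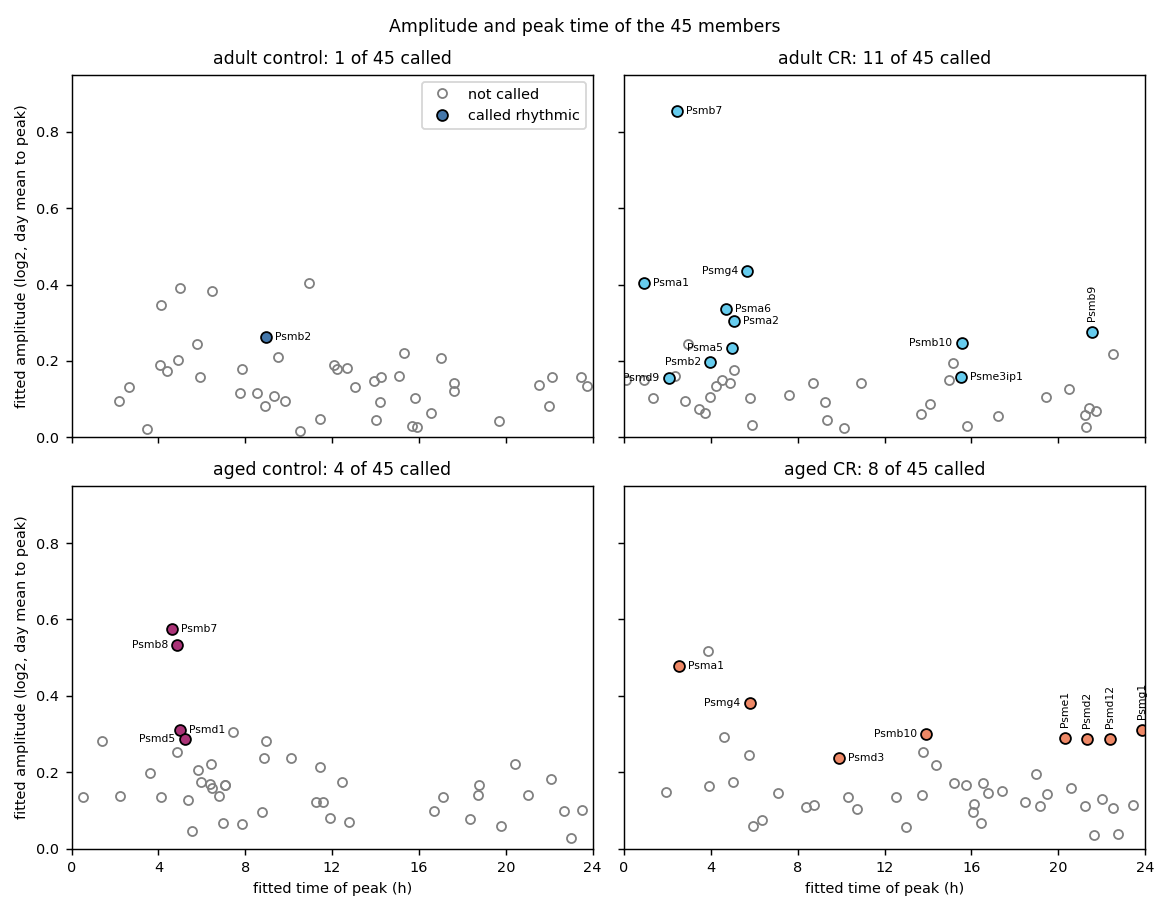
Each circle is 1 of 45 members, by fitted time of peak (h) and fitted amplitude (log2, day mean to peak), in 1 panel per arm. Filled circles are members called rhythmic (1, 11, 4 and 8), which sit between 0 and 6 h in 8 cases for adult CR and 4 for aged control, with those of aged CR spread over the day.

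Whether rhythms differed between arms was tested directly. In each of the 4 pairs of arms, limma called 0 of 45 members (3, 5, 3 and 7 members had an unadjusted p under 0.05 for aged against adult in control, aged against adult in CR, CR against control in adult, and CR against control in aged). These unadjusted counts are 6.67%, 11.1%, 6.67% and 15.6% of the members, against 4.04%, 9.86%, 6.45% and 13.8% of all genes. Over all genes the calls were 0 (0%), 1 (0.00844%), 3 (0.0253%) and 46 (0.388%). A member called in 1 arm and not in another is therefore not shown to differ between them. When the rhythm was averaged over the 4 arms, a test added after the data were seen that uses all arrays, 21 of 45 members were called (46.7%), against 55.2% of all genes. They included Psmb7 with an amplitude of 0.56 ± 0.08 and a peak at 3.73 h, Psma1 with 0.36 ± 0.07 at 2.25 h, Psmg4 with 0.32 ± 0.06 at 6.41 h, Psma6 with 0.28 ± 0.06 at 5.58 h and Psmb10 with 0.17 ± 0.03 at 14.6 h. The 2 ATPases called on average were Psmc2 (0.17 ± 0.04, peak at 13.9 h) and Psmc3 (0.09 ± 0.03, peak at 23.2 h).

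The second question was whether age or diet changed the level of these transcripts over the day. Psmb10 was lower in aged CR than in aged control cells. By their brightest probe sets, no other member was called in any of the 4 comparisons of day means. The lowest, median and highest Psmb10 values were 6.85, 7.24 and 7.62 in aged control and 6.16, 6.91 and 7.66 in aged CR, with means of 7.21 ± 0.23 (SD, n = 24) and 6.88 ± 0.34 (SD, n = 26). The arms overlap widely. The difference of the day means was -0.34 ± 0.07 (SE) on the log2 scale, or 1.26-fold lower (limma adjusted p = 0.00105), where 272 of all genes (2.29%) were called. It stayed past the threshold in all 50 omissions of 1 array of the 2 arms, with adjusted p-values from 0.000476 to 0.00247. In adult cells the lowest, median and highest values were 6.54, 7.17 and 7.59 in control and 6.50, 7.04 and 7.66 in CR. The adult difference was -0.11 ± 0.07 (adjusted p = 0.511), and the diet effect was not called different between the ages (interaction -0.23 ± 0.09, unadjusted p = 0.0153, adjusted p = 0.537).

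By time of day, the difference of Psmb10 between the aged diets was called at T0, where 206 genes (1.74%) were called. The aged control arrays at T0 read 7.02, 7.21, 7.33 and 7.57 and the aged CR arrays 6.38, 6.56, 6.73, 6.78 and 7.02, so the highest CR array reaches the lowest control array and the others lie lower. The difference there was -0.59 ± 0.15 (SE, adjusted p = 0.0198), and with array weights its adjusted p was 0.0671. At T8 the control arrays read 7.28, 7.29, 7.40 and 7.45 and the CR arrays 6.64, 6.67, 6.87 and 6.91, without overlap (difference -0.58 ± 0.15, adjusted p = 0.0736, where 0.287% of genes were called). At T16 the sign was turned, with CR above control by 0.13 ± 0.15 (adjusted p = 0.913). Limma called no other member at any time in either age: 0 of 45 at the 6 times in adult cells, where 0% to 0.43% of all genes were called, and 0 at the other 5 times in aged cells, where 0.11% to 0.287% were. Between 2 and 9 members (4.44% to 20%) had an unadjusted p under 0.05 at each of the 12 age and time points, against 5.33% to 16.5% of all genes. The counts of 9 (20%) were at T0 in adult cells, against 10.3% of all genes, and at T20 in aged cells, against 12%.

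**Figure D4:**
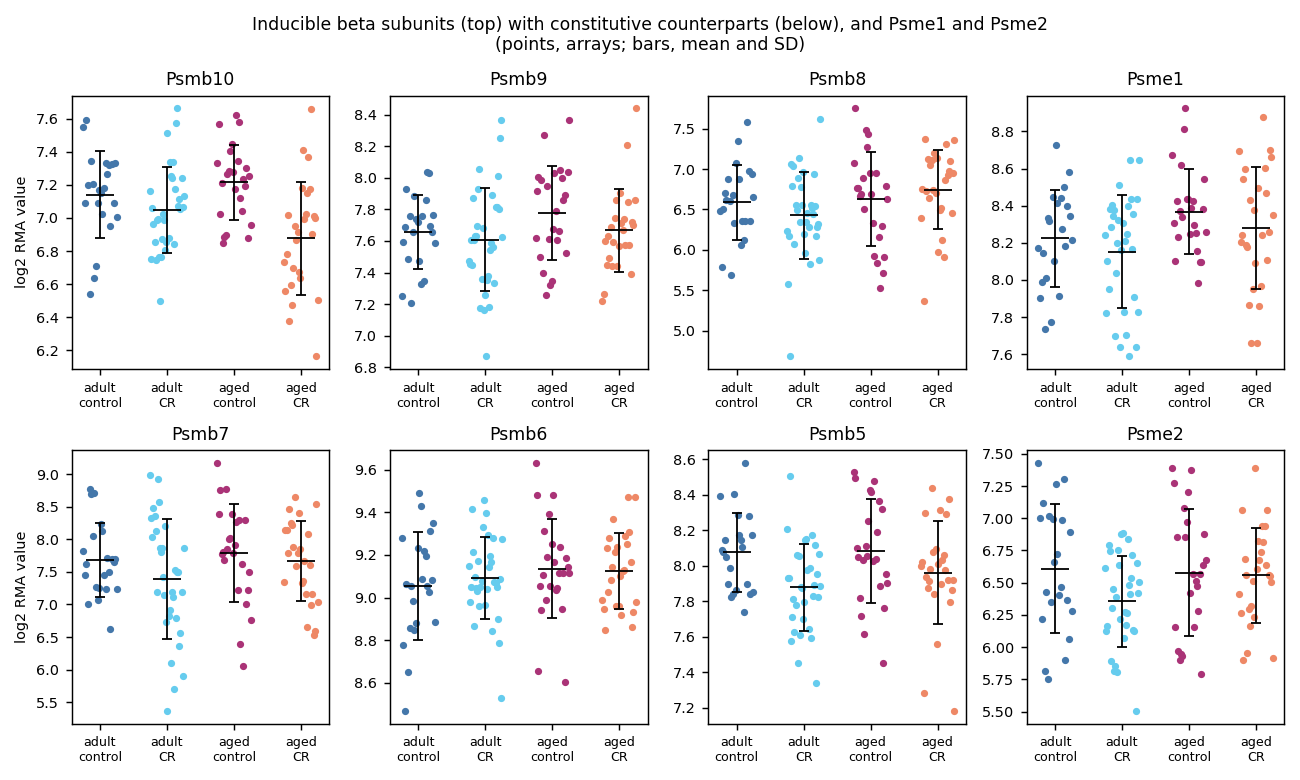
Points are arrays, by arm, on the log2 RMA scale, with bars for mean and SD, for the inducible subunits Psmb10, Psmb9 and Psmb8 above the constitutive Psmb7, Psmb6 and Psmb5 they replace, and for Psme1 and Psme2. The aged CR arm of Psmb10 sits lowest of its 4 arms, with a mean of 6.88, and the SD bars of the 4 arms overlap for every gene shown, Psmb10 included.

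Macrophages and lymphocytes are rich in the inducible subunits, and their markers are given beside the Psmb10 result. Between the aged diets the mean log2 level of the 4 macrophage markers above the filter had medians of 5.62 (range 5.31 to 5.80) in control and 5.70 (5.42 to 5.88) in CR, and that of the 3 lymphocyte markers 5.81 (5.41 to 6.11) and 5.95 (5.54 to 6.15). Of these markers, Cd68 and Cd79a were called, both higher in aged CR (0.38 ± 0.09 and 0.30 ± 0.08, adjusted p = 0.0107 and 0.0239), and none was called lower. The defining genes Ptprc, Adgre1, Lyz2, Cd3e, Cd3g and Ms4a1 were below the filter, so these 7 markers are a weak measure of immune cells. With their mean as a covariate, added after the data were seen, Psmb10 was still called lower in aged CR. The part of immune cells in the Psmb10 difference was not tested. The other inducible genes gave no call between the aged diets. Psmb9 differed by -0.11 ± 0.07, Psmb8 by 0.12 ± 0.14, Psme1 by -0.09 ± 0.07 and Psme2 by -0.02 ± 0.12 (adjusted p = 0.481, 0.744, 0.608 and 0.964). The constitutive Psmb7, Psmb6 and Psmb5 differed by -0.13 ± 0.17, -0.01 ± 0.06 and -0.12 ± 0.08, also without a call.

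No other member was called in the level comparisons by its brightest probe set, with estimates of up to 0.32 in size. The 2 dimmer probe sets of Psmd7 gave -0.18 and -0.13 between the aged diets (unadjusted limma p = 0.000387 and 0.0156). For aged against adult in CR they gave -0.16 and -0.11 (unadjusted p = 0.000496 and 0.0218). The brightest gave 0.06 and 0.15 in these comparisons (adjusted p = 0.844 and 0.53), so the probe sets of Psmd7 disagree in sign. Aged against adult in control cells, limma called 0 of 45 members, where 50 genes (0.422%) were called. There 0 members had an unadjusted p under 0.05, against 10.3% of all genes. Of 5 Schwann cell markers, 3 were called higher with age in control and 2 in CR, as were 2 of 4 pericyte and smooth muscle markers in CR, and 1 of 14 muscle stem cell markers was called lower with age in control. Their part in these values was not tested. The largest estimates were Psma6 at 0.22 ± 0.12, Psma1 at 0.19 ± 0.16 and Psmd6 at 0.19 ± 0.16 (adjusted p = 0.501, 0.734 and 0.753). Within CR, whose age tags fit the titles, limma called 0 of 45 members, where 230 genes (1.94%) were called. An unadjusted p under 0.05 was held by 5 members (11.1%), against 14.3% of all genes. There Psmb8 had 0.32 ± 0.13, Psmb7 0.28 ± 0.16, Psmd6 0.21 ± 0.14 and Psmb10 -0.18 ± 0.06 (adjusted p = 0.204, 0.429, 0.528 and 0.122). The median of the 45 differences was 0.00 in control and 0.02 in CR, against 0.01 and 0.00 over all genes.

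CR against control in adult cells gave 0 calls of 45 (5 unadjusted, 11.1% against 13.1% of all genes), where 124 genes (1.05%) were called. Of the 45 estimates 34 were negative, with a median of -0.05, against 0.01 over all genes. The 10 beta ring genes had a median of -0.07 and the 3 activators were all negative, and the 3 largest estimates were Psmb7 at -0.24 ± 0.17, Psme2 at -0.23 ± 0.12 and, with the other sign, Psma6 at 0.23 ± 0.11 (adjusted p = 0.588, 0.388 and 0.335). The fibroadipogenic markers Dpt and Gsn were lower in adult CR (-0.24 ± 0.06 and -0.18 ± 0.05, adjusted p = 0.0159 and 0.0228), and their part in the members' estimates was not tested. In aged cells 29 of 45 were negative with a median of -0.02, and beside Psmb10 the largest were Psma1 at -0.32 ± 0.15 and Psmd2 at -0.21 ± 0.08 (adjusted p = 0.251 and 0.134). That median changed sign, to 0.00 with 25 of 45 positive, with the mean of the macrophage and lymphocyte markers as a covariate, added after the data were seen. The interaction of age and diet was called for 0 of 45 members (1 unadjusted, 2.22% against 7.66% of all genes) and for 0 of all genes (0%). With the diet difference averaged over the ages, which was added after the data were seen, Psmb10 (-0.22 ± 0.05) and Psmd1 (-0.18 ± 0.06) were lower in CR (adjusted p = 0.000848 and 0.0346), where 726 genes (6.13%) were called. The age difference averaged over the diets was called for 0 of 45 members (3 unadjusted, 6.67% against 15.1% of all genes), where 426 genes (3.59%) were called.

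**Figure D5:**
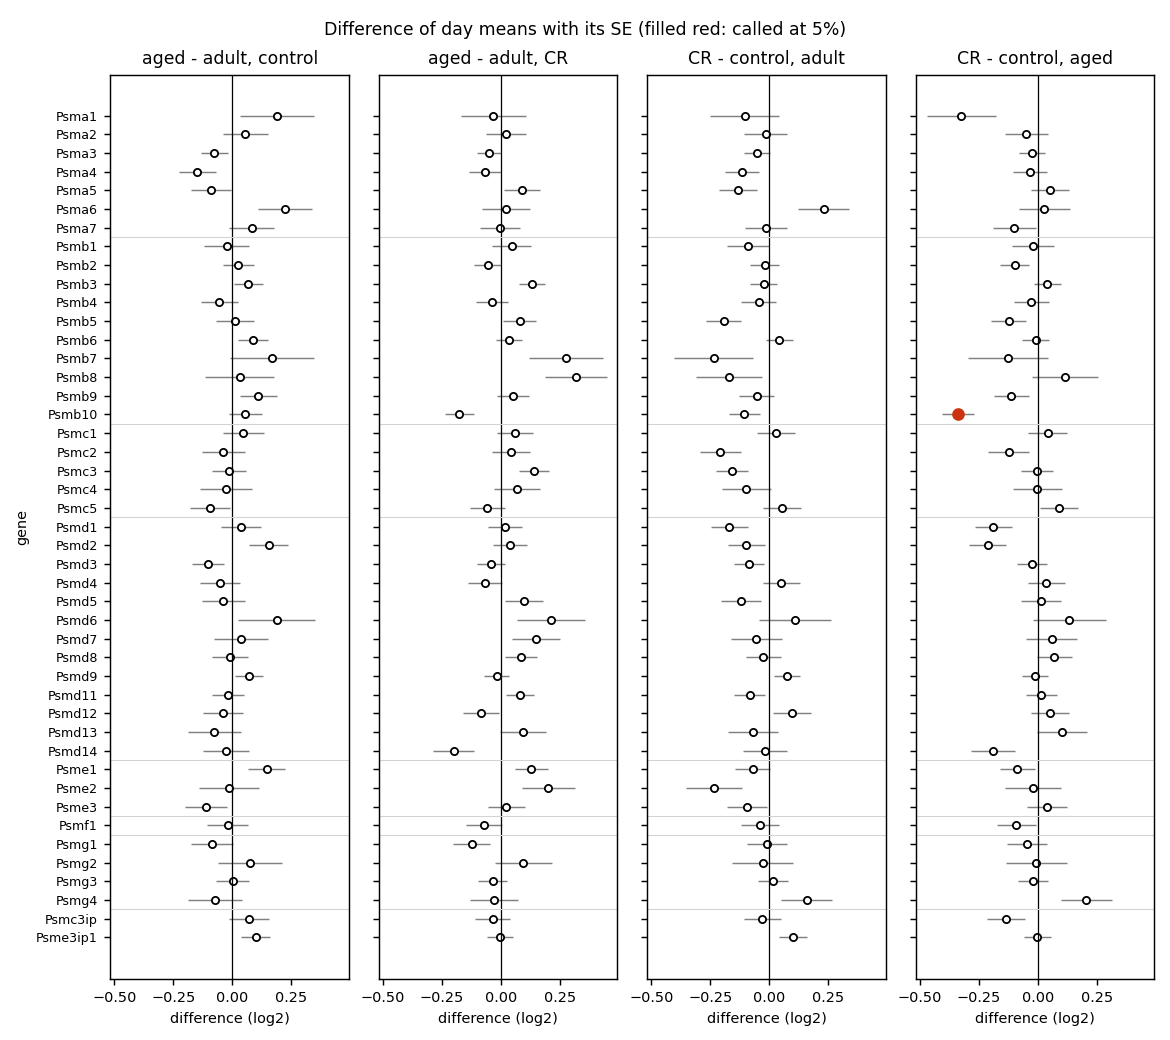
Circles give, for 45 members (rows, grouped by role), the difference of day means in log2 units with its SE as a bar, for aged minus adult in control and in CR and for CR minus control in adult and in aged cells. The 1 filled red circle is Psmb10 in aged cells, at -0.34, and every other interval belongs to a gene that was not called.

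Correlations between members from array to array were weak on average. After the mean of its arm and time was taken from each array, the 43 named members above the filter had a mean pairwise correlation of 0.12 over all arrays, against 0.01 over all genes. It was 0.25 among the 7 alpha ring genes, 0.21 among the 5 ATPases, 0.13 among the 10 beta ring genes and 0.09 among the 13 Psmd genes. The most alike pairs were Psma2 with Psmb6 (0.592), Psma5 with Psmb6 (0.551) and Psma2 with Psma5 (0.543), all parts of the 20S core, and the pairs furthest below 0 were Psmc2 with Psmg3 (-0.373), Psmb10 with Psmd12 (-0.329) and Psmd3 with Psmd8 (-0.327). Psmb6 correlated at 0.721 with the mean of the other members, while Psmb9 (-0.087), Psmd9 (-0.15) and Psmg3 (-0.152) lay below 0. Genes measured on the same array share its RNA and its amplification. Without the strongest pattern common to all genes, which held 6.31% of the variance, the mean correlation of the members was 0.09. The spread of the members between arrays of 1 arm and time had a median SD of 0.284, against 0.259 over all genes, and was highest for Psmb7 (0.579).

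Other genes of the ubiquitin and proteasome system were read from 5 lists with 44 tested genes (a sixth, of ubiquitin genes, had 0 tested). Their rhythms were called in 7 of 44 (control) and 12 (CR) in adult cells and in 4 and 6 in aged cells, against the 10.6%, 22.4%, 10.8% and 16.5% of all genes. Among the 9 associated proteasome factors, Zfand2a, a proteasome adaptor induced by arsenite, was rhythmic in 3 arms, with amplitudes of 0.35 ± 0.09 (adult control), 0.23 ± 0.07 (adult CR) and 0.36 ± 0.09 (aged control) and peaks at 15.6, 14.9 and 14.2 h (adjusted p = 0.0110, 0.0425 and 0.0105). Zfand5, an activator of the proteasome in muscle wasting, was called in aged CR with 0.36 ± 0.10 at 19.0 h (adjusted p = 0.0215). Of the 8 tested muscle ubiquitin ligases, Fbxo30 (MUSA1) was called in all 4 arms, with amplitudes of 0.44, 0.31, 0.45 and 0.45 and peaks at 7.65, 5.75, 7.55 and 4.26 h in the same order of arms as above (adjusted p = 0.00786, 0.00656, 0.00102 and 0.000611). Fbxo32 (atrogin-1) was called in aged control, with 0.43 ± 0.13 at 11.5 h (adjusted p = 0.0449).

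Regulators of proteasome gene transcription were called in 2 of 13 cases (control) and 5 (CR) in adult cells and in 1 and 2 in aged cells, beside the shares of all genes above (10.6%, 22.4%, 10.8% and 16.5%). In adult CR, Nfe2l2 (NRF2), which binds antioxidant response elements, peaked at 2.86 h with an amplitude of 0.36 ± 0.09, and the NF-Y subunits Nfya and Nfyb at 0.796 and 5.12 h with 0.28 ± 0.08 and 0.48 ± 0.12 (adjusted p = 0.00905, 0.0328 and 0.00845). In aged CR, Nfya and Nfyb peaked at 20.9 and 21.95 h with 0.49 ± 0.09 and 0.43 ± 0.13 (adjusted p = 0.000426 and 0.0454). Of the 5 tested antigen processing genes 1 was rhythmic, Irf1, which induces the immunoproteasome, in adult CR (22.4% of all genes) with 0.18 ± 0.05 at 7.55 h (adjusted p = 0.0231). Among the 9 substrate delivery genes, Ubqln1 and Nsfl1c were rhythmic in adult control (10.6% of all genes) and Ufd1 and Nploc4 in aged CR (16.5%). In level, 0 of 44 genes were called for age in control, age in CR or diet in aged cells (0.422%, 1.94% and 2.29% of all genes), and 1 for diet in adult cells (1.05%), the delivery factor Ubqln4, higher in CR by 0.33 ± 0.09 (adjusted p = 0.0339). The rhythms of the 44 gave 0 calls in each of the 4 pairs of arms, where 0% to 0.388% of all genes were called.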

How the data were processed

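RNA of muscle stem cells was amplified and hybridised to Affymetrix mouse arrays. The authors deposited 1 table of 45141 probe sets by 104 arrays, made with RMA per the submitters' processing notes, whose values from 1.19 to 12.8 were read as log2. RMA sets all arrays to 1 distribution, so a change shared by most genes would not show. Version, filters and any batch correction are not given in the sources used here, and no batch could be tested.

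The arrays' titles gave the groups. GEO's annotation named 1 gene for 28898 probe sets, several for 551 and none for 15692. Genes were represented by their brightest probe set, and those with a mean below the 40th percentile (4.50) were left out, leaving 11853 of 17097. A single fit in limma 3.58.1 (R 4.3.3) gave each arm a day mean and a 24 h cosine and sine, with tests moderated by eBayes and Benjamini-Hochberg adjustment at 5% over all genes. A second fit of 24 group means gave diet differences at each time. Both were tested on simulated data.

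Genes with values for every arm are the members called, the 3 with the largest amplitude in an arm or level difference in a pair, the inducible subunits with their counterparts, and the brightest and dimmest of each role. The members and gene lists were chosen with earlier results of these data known. The number of arrays limits the precision.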

Additional observations from a re-analysis of the deposited data

Results flagged for a closer look

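In the mean over the 45 tested members, 2 arrays stood apart from the others of their arm and time, among 23 groups of 4 to 6 arrays examined. Chance marks about 1 in 20 groups in this way. Replicate 3 of aged CR at T20 had a mean log2 value of 7.895, where the other 3 arrays lay between 7.513 and 7.539, so the gap took up 0.932 of the range. Replicate 2 of aged control at T12 had 7.834, where the other 3 lay between 7.702 and 7.718 (0.883 of the range). Without the first array 10 members were called rhythmic in aged CR in place of 8. Without the second, 3 were called in aged control in place of 4. The shares of all genes called without these arrays are not given here, so these counts have no background. The difference of Psmb10 between the aged diets was called without either. What sets these arrays apart was not tested.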

How the results depend on the processing

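The count of rhythmic members in adult control was 1, and became 4 with time as 6 levels (Psma1, Psma2, Psmd6 and Psmf1, without Psmb2), 2 after the first residual component was taken out, 2 with a separate fit of each arm, and 0 to 2 when 1 array was left out (0 without T0 replicate 2 or 3 or T8 replicate 1, 3 or 4, and 2 without T0 replicate 1). In adult CR, 11 became 7 with replicate numbers 1 to 4 only and 6 without the T20 arrays. In aged control, 4 became 2 without the filter on dim probe sets (Psmb8 and Psmd1), 9 with 6 levels, 0 without T20 and 1 to 4 when 1 array was left out (1 without T16 replicate 1 or 3, and 2 without any of T0 replicates 1 to 4, T8 replicate 1, T12 replicate 3 or T20 replicates 2 to 4). In aged CR, 8 became 5 without T20. Without T20 the curve rests on 5 times. The rhythm difference between the aged diets was called for 1 member, Psme1, in place of 0 with array weights, with the first residual component, with the replicate block, and in the omissions of 5 arrays (aged CR T8 replicate 3, T12 replicate 2 or T20 replicate 1, aged control T0 replicate 1 or T20 replicate 3), with 0 to 1 over all omissions. With array weights, members called between the aged diets were 0 at T0, 2 at T8 (Psmb10 and Psme1) and 1 at T16 (Psmb8). Results of single genes stayed past the threshold in 268 cases and lost the call in 40. The level differences of Psmb10 kept their sign. An amplitude has no sign, so a reversal could not show for rhythms, and their peak times were not compared. The lower Psmb10 in aged CR was called under every alternative run. The cause of these shifts was not tested. With 6 levels, 14.1% of all genes were called in adult control and 12.8% in aged control. For the other settings no share of all genes is given here, so the counts are not read as a trait of the members. Same-numbered arrays of an age and time were not paired: 10 of 45 pairs correlated above 0.1 (median 0.0355). Separate fits give no value for the interaction.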
